A study of Mus musculus with 6 samples.

Results

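The clustered histone genes of the mouse are the copies of H1, H2A, H2B, H3 and H4 that lie together in the genome and carry the symbols Hist1, Hist2, Hist3 and Hist4. They were taken here as every protein-coding gene of GENCODE M21 whose symbol starts with Hist1h, Hist2h, Hist3h or Hist4, and 65 of the 49671 genes in the count tables met this rule. GENCODE M21 holds 67 such genes, and the other 2 were not analysed here. The members comprise 6 linker histone H1 genes, 18 H2A, 16 H2B, 12 H3 and 13 H4 genes. Of these, 52 belong to the Hist1 cluster on chromosome 13, 10 to Hist2 on chromosome 3, 2 to Hist3 on chromosome 11 and 1 to Hist4 on chromosome 6.

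Core histones H2A, H2B, H3 and H4 form the protein spool of the nucleosome, and H1 binds the linker DNA between nucleosomes. The clustered genes are known as replication-dependent because a dividing cell transcribes them in S phase, under the coactivator NPAT, when new DNA has to be packaged. Their mRNAs are unusual in ending in a conserved stem-loop, bound by the protein SLBP, in place of the poly(A) tail of other mRNAs. A method that selects RNA by its poly(A) tail therefore sees them differently from one that does not, and how RNA was selected for these libraries is not given in the sources used here.

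RNA came from OT-I T cells, CD8 cells with a transgenic receptor for the ovalbumin peptide SIINFEKL, which were stimulated with that peptide for 48 h. All 3 groups share the OT-I genotype, the peptide and the time, and differ in whether BiTS, BiTS(mut) or an isotype control was added. BiTS is an engineered bispecific molecule that brings the inhibitory receptor LAG-3 close to the T cell receptor, and what BiTS(mut) alters is not stated in the labels. The series asks how the transcription of the activated cells differs between these additions. The labels give splenocytes as the tissue and naive primary CD8 T cells as the cell type, and the series names antigen-presenting cells as the source of the peptide. Each group has 2 libraries, 1 with a title number from 1 to 3, called here the first set (isotype replicate 1, BiTS(mut) replicate 1, BiTS replicate 1), and 1 from 4 to 6, the second set (isotype replicate 4, BiTS(mut) replicate 2, BiTS replicate 2). The labels state neither what a set is nor whether the libraries come from separate animals or cultures. A p-value here therefore covers only library-to-library spread, which may be technical.

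Gene counts were 10813123 to 15239077 per library, and a count of 3, the most that a count of 0 allows, was 0.197 to 0.277 CPM, the usual count scaled to library depth. All 7 CD8 T cell markers were detected, and they summed to 1274 ± 104 CPM in the first set and 1668 ± 39.1 CPM in the second (SD, n = 3), with no overlap. Dendritic cell markers, with Siglech at 0 in every library, summed to 219, 256 and 305 CPM in the first set and to 92.8, 93.2 and 104 CPM in the second. Macrophage and monocyte markers summed to 40.8 ± 4.23 CPM in the first set and 15.9 ± 1.06 CPM in the second, and B cell markers, mostly Ighm, to 63.8 ± 8.86 and 90.3 ± 6.22 CPM (SD, n = 3). The part of these marker differences in any histone value was not tested, and in bulk RNA fewer cells of a type and less RNA per cell cannot be told apart.

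The defining 3′ stem-loop was read from the GENCODE M21 transcripts (build GRCm38). The 16-letter motif GGNNNTNTNNANNNCC, searched on the transcript strand in the 100 bases after the stop codon, was present in at least 1 transcript of 42 of the 50 members with a window of at least 30 bases there (84%). Among 20796 other protein-coding genes, 146 held it (0.702%), and H2afx was one of them. In 41 members the transcript with the longest coding sequence held it. Of these, 23 held one stem-loop, 6 a second form shared by H1, H2B and H3 genes, and 1, Hist2h2ac, a form of its own. The 11 H4 genes held forms found in no other class. The members whose values the results below turn on are shown with the 12 bases that precede the stem-loop, the stem-loop itself being in capitals.
Hist1h2ao: aaaaaaaaaaaaGGCTCTTTTCAGAGCC
Hist1h2ap: aaaaaaaaaaaaGGCTCTTTTCAGAGCC
Hist1h2ae: aaaaaaaacaaaGGCTCTTTTCAGAGCC
Hist1h2ag: atcgccaacaaaGGCTCTTTTCAGAGCC
Hist1h2bj: accaaatccaaaGGCTCTTTTCAGAGCC
Hist1h3c: tatttaaaaaaaGGCTCTTTTAAGAGCC
Hist1h4d: ccaaaaaccaaaGGCCCTTTTCAGGGCC
Hist1h4i: atgctacttaaaGGCCCTTTTTAGGGCC
Hist1h4b: actgttacaaaaGGTCCTTTTCAGGACC
Hist1h1c: aacaatccaaaaGGCTCTTTTCAGAGCC
Hist3h2ba: ccccaacccaaaGGCTCTTTTCAGAGCC
A run of 12 A immediately before the stem-loop was found only in Hist1h2ao and Hist1h2ap among the 50 members (4%), and a run of that length occurred in the same window of 0.486% of the other genes. Hist1h2ae had a longest run of 8 A in that stretch and Hist1h3c of 7.

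The members are also close copies of one another, which limits what a single row can show. In 41 of the 65 (63.1%), more than 50% of the 50-base words of the counted sequence also occurred in another annotated gene, and in 7 at most 10% did. All 13 H4 genes encode a single protein of 103 residues from 12 different coding sequences that are 85.3% to 100% identical. Of the H2A genes, 9 encode an identical protein, and among the H3 genes 1 protein is encoded by 7 members and another by 4. Hist1h2ao and Hist1h2ap shared 93.5% and 93.1% of their words with each other. The sources used here do not say how the counting placed reads that fit several copies. Values of single rows within these families are therefore uncertain, and sums over a class are given beside them.

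Of the 65 rows, 45 (69.2%) had enough counts to be tested and 20 (30.8%) were too low to judge. The lowest total over the 6 libraries among tested rows was 57 counts and the highest among the others 47. At 0 in every library stood 6 rows (9.23%), namely Hist2h2aa1, Hist2h2aa2, Hist2h3c1, Hist2h3b, Hist2h2bb and Hist1h2ba. The first 5 of these were the only members with every 50-base word shared, and each lay wholly under the exons of another annotated gene (Gm20633, Gm20632, Gm20634 or Gm20628). Tested rows overlapped other genes in part, among them Hist3h2a (33.0%, Trim17, same strand) and Hist1h4b (56.2%, 4930558J22Rik, opposite strand). Hist1h2ao and Hist1h2ap lay 28.8% and 28.6% under opposite-strand miRNA genes. How such overlaps bear on the counts was not tested. Hist1h2ao, with 93.5% of its words shared, was the most abundant member. What part sharing has in the rows at 0 was not tested. By class, 5 of 6 H1, 13 of 18 H2A, 8 of 16 H2B, 7 of 12 H3 and 12 of 13 H4 rows were tested.

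Together the members held 2299 to 2842 counts per library, or 177 to 231 CPM. Levels of different genes are compared below as RPKM, the CPM divided by the exon length in kilobases that the tables give. Hist1h2ao (chromosome 13, bases 21810465 to 21810944, plus strand) was the highest, at 86.6 ± 32.4 RPKM (SD, n = 6), followed by Hist1h2ap (chromosome 13, bases 21833026 to 21833507, minus strand) at 32.0 ± 11.2 RPKM and Hist1h4i at 26.3 ± 2.29 RPKM. The intervals mean ± SD of Hist1h2ap and Hist1h4i overlapped. Hist1h4i was the higher of them in each first-set library and Hist1h2ap in each second-set library. The wide spread of the pair Hist1h2ao and Hist1h2ap was a difference between the sets, described below.

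**Figure D1:**
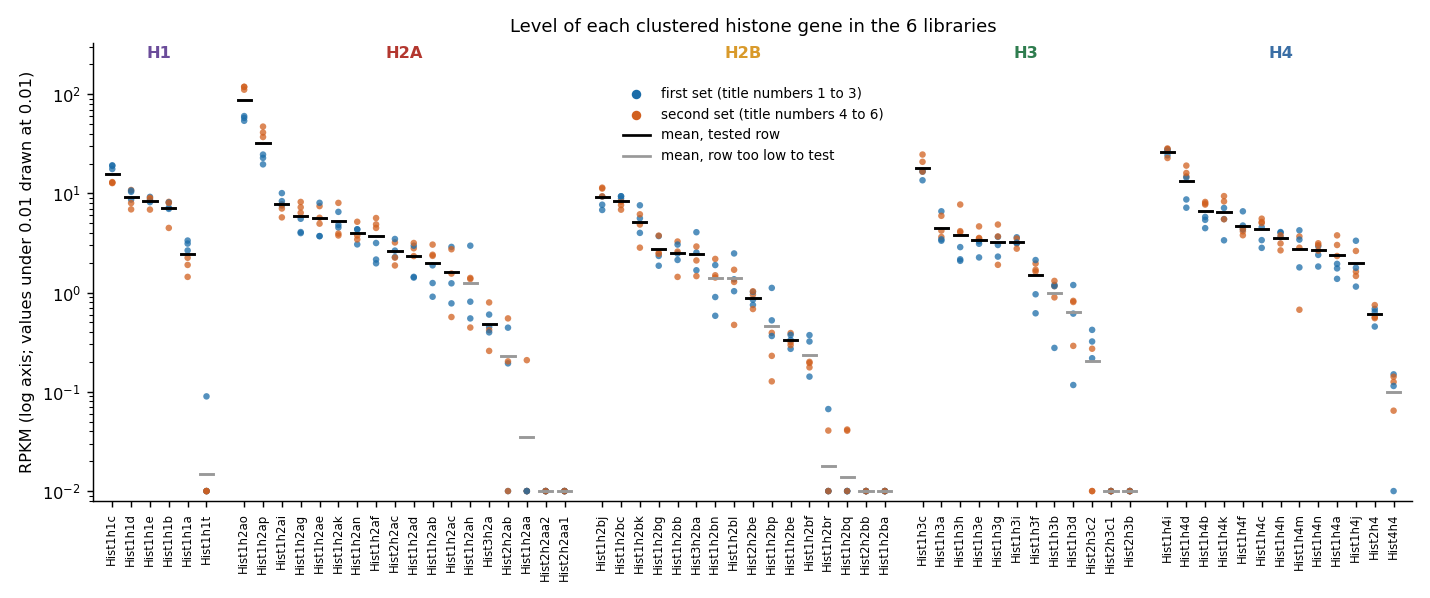
RPKM on a log axis of all 65 members in each of the 6 libraries, grouped by histone class and ordered by mean, with points coloured by set and bars at the mean. Hist1h2ao stands at a mean of 86.6 RPKM with its second-set libraries above its first-set libraries, while 39 members have a mean between 1 and 10 RPKM.

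Among linker histones, Hist1h1c led with 15.7 ± 3.19 RPKM, then Hist1h1d with 9.23 ± 1.62 and Hist1h1e with 8.43 ± 0.853, the last pair being within their spread. Hist1h1c has the longest annotated stretch beyond the stem-loop of these, 840 bases of its counted interval against 28 in Hist1h1d and 27 in Hist1h1e. Whether that stretch bears on the level was not tested. After Hist1h2ao and Hist1h2ap, the next H2A gene was Hist1h2ai at 7.75 ± 1.44 RPKM. The other tested H2A rows ran down to Hist3h2a at 0.487 RPKM. Among H2B genes, Hist1h2bj reached 9.29 ± 1.84 RPKM, Hist1h2bc 8.39 ± 1.0 and Hist1h2bk 5.17 ± 1.67. The means of the first pair lay within their spread over all libraries, but their order changed with the set. Hist1h2bc was the higher in each first-set library and Hist1h2bj in each second-set library. In H3, Hist1h3c stood at 18.2 ± 3.92 RPKM and Hist1h3a at 4.53 ± 1.40. H4 was led by Hist1h4i, then Hist1h4d at 13.4 ± 4.54 RPKM and Hist1h4b at 6.58 ± 1.56. The testis-linked members Hist1h1t, Hist1h2aa and Hist1h2ba held 1, 1 and 0 counts over all libraries.

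The 4 members with 7 or more A in a row between stop codon and stem-loop (Hist1h2ao, Hist1h2ap, Hist1h3c and Hist1h2ae) had a median level of 25.1 RPKM and a range of 5.59 to 86.6. Of these, Hist1h2ao and Hist1h2ap are near copies. Hist1h3g, at 3.23 RPKM, had 7 A in a row in the 95 bases after its stop codon but no motif match, and is not among them. The 14 with runs of 4 to 6 had a median of 3.01 RPKM, and the 23 with shorter runs 2.46 RPKM with a range of 0 to 26.3. Over the 32 tested members with a stem-loop, the length of the run and the mean RPKM correlated at a Spearman rho of 0.42, and at 0.29 without Hist1h2ao and Hist1h2ap. This is a description across genes that share sequence, and the grouping by run length was chosen after the levels were seen.

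H2A and H2B genes often lie head to head, so that 1 stretch of DNA serves as the promoter of both. There were 12 such pairs among the members, with 235 to 305 bases between the counted intervals. In 4 pairs both rows were tested, and the H2A row was the higher per length in 2 of them (Hist1h2ae and Hist2h2ac) and the H2B row in the other 2 (Hist1h2bj and Hist1h2bc). Hist2h2ac held 101 counts over 520 annotated bases and its partner Hist2h2be 170 over 2620. By counts the H2B row was the higher in that pair, so its order depends on the annotated length. The remaining 8 pairs each hold at least 1 row too low to judge. Hist1h2ag and its partner Hist1h2bj stood at 5.90 ± 1.70 and 9.29 ± 1.84 RPKM, and Hist1h2bj was the higher in every library. The pair with Hist1h2ao differed most in counts. Hist1h2bq, its partner, whose annotated exons run on over 2217 bases, held 2 counts in all 6 libraries together against 3010 for Hist1h2ao. Hist1h2br, the partner of Hist1h2ap, held 3 counts, and 90.2% of its 50-base words also occurred in Hist1h2bq. Of the words of Hist1h2bq, 99.7% also occurred in Hist1h2br. Since both rows were too low to judge, how uneven these pairs are cannot be told.

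Promoters, meaning windows of 300 bases around and mostly before the start site in RefSeq (GRCm38.p6), were found for 60 of the 65 members, 1 of them with 2 start sites. The CCAAT box (CCAAT on either strand) was in 52 of these 61 promoters (85.2%) against 37.4% of all 32851 RefSeq promoters. It was in every H1, H2A, H2B and H3 promoter and in 3 of the 12 of H4. The TATAAA box (either strand) was in 57.4% against 13.6%. The octamer ATTTGCAT (either strand) was in 7 of 18 H2A and 6 of 15 H2B promoters and in none of H1, H3 or H4, against 1.74% of all promoters. Windows of head-to-head partners can overlap on opposite strands, so the same match can count for both genes, as the octamer of Hist1h2ae and Hist1h2bg did. The 61 promoters are therefore not all separate stretches of DNA. The promoter of Hist1h2ao, the most abundant row, covers most of the gap between it and Hist1h2bq (chr13:21810117-21810416, plus strand), and its CCAAT boxes on either strand are in capitals.
Hist1h2ao promoter: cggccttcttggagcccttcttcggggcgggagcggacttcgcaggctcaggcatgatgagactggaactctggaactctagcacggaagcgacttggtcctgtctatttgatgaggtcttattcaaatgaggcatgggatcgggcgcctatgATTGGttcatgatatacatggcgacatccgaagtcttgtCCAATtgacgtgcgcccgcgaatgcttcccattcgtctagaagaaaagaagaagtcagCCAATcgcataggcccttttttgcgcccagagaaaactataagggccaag
A match is a description of the letters, and no measure of factor binding belongs to these data.

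The treatment comparisons ask whether BiTS or BiTS(mut) moved the clustered histone genes in the activated cells. With edgeR's quasi-likelihood test and Benjamini-Hochberg adjustment, 0 of the 45 tested members were called at an adjusted p under 0.05 in any of the 3 comparisons, against a background of 0% of the 13996 genes tested in each. With the sets as a replicate block the background was 3.4% for BiTS against isotype, 0.972% for BiTS against BiTS(mut) and 0.05% for BiTS(mut) against isotype, and the members called were again 0 in each. DESeq2, with and without the block, and limma-voom also called 0 members. At an unadjusted p under 0.05 without the block there were 0, 0 and 1 members in these comparisons, beside 176, 76 and 41 of all 13996 genes. With the block there were 1, 0 and 1 members, beside 2071, 1183 and 620 of all genes. The summed level was 203 ± 8.22 CPM in isotype, 204 ± 38.4 CPM in BiTS(mut) and 207 ± 33.9 CPM in BiTS (SD, n = 2), so the spread within groups exceeded the differences between them.

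Between BiTS and isotype the median log2 fold change of the members was 0.046, beside -0.006 over all genes tested, and 25 of 45 were positive. Hist1h1d, a linker histone, had the smallest p. It held 75 and 57 counts in the isotype libraries, 121 and 73 in BiTS(mut) and 104 and 87 in BiTS. As CPM these were 6.45 and 5.13, 7.94 and 5.94, and 7.71 and 8.05, so both BiTS libraries lay above both isotype libraries. Its log2 fold change with the block was 0.47 ± 0.21 (SE; adjusted p = 0.281). Hist1h4d was at -0.50 ± 0.26 (adjusted p = 0.358) and Hist1h4m at 0.98 ± 0.52 (adjusted p = 0.383), the latter on 16 and 3 counts in isotype and 23 and 16 in BiTS. Hist1h2ao was at 0.11 ± 0.11 with the block and at 0.10 ± 0.54 without it.

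Between BiTS and BiTS(mut) the median was 0.056, beside -0.003 over all genes. Hist1h4i held 273 and 218 counts in BiTS and 268 and 203 in BiTS(mut), or 20.2 and 20.2 against 17.6 and 16.5 CPM. The groups did not overlap, and the log2 fold change with the block was 0.26 ± 0.14 (adjusted p = 0.648). The H2B gene Hist1h2bg was at -0.77 ± 0.44 and the H3 gene Hist1h3g at 0.79 ± 0.46, with 12 and 13 counts in BiTS for the first and 15 and 10 in BiTS(mut) for the second.

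Between BiTS(mut) and isotype the median was -0.017, beside 0.002 over all genes. Hist3h2ba, an H2B gene of the small Hist3 cluster, was the only member with an unadjusted p under 0.05 there. Its counts were 12 and 10 in isotype, 38 and 22 in BiTS(mut) and 21 and 14 in BiTS, so BiTS(mut) was above both other groups in CPM. Its log2 fold change was 1.16 ± 0.41 without the block (unadjusted p = 0.029, adjusted p = 1.0) and 1.16 ± 0.43 with it (adjusted p = 0.928). Hist1h2ae was at -0.67 ± 0.35 and Hist1h3h at 0.73 ± 0.42 with the block.

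These intervals were wide. The median half-width of the 95% interval of a member was 1.11 on the log2 scale without the block for each comparison, and 0.82, 0.80 and 0.82 with it. With the block the interval lay within 1 log2 unit of 0 for 21 members between BiTS and isotype, 22 between BiTS and BiTS(mut) and 19 between BiTS(mut) and isotype. For the other tested members the interval also held a change of over 2-fold. Of the 3 comparisons, those with isotype share its libraries, and those with BiTS share the BiTS libraries.

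**Figure D2:**
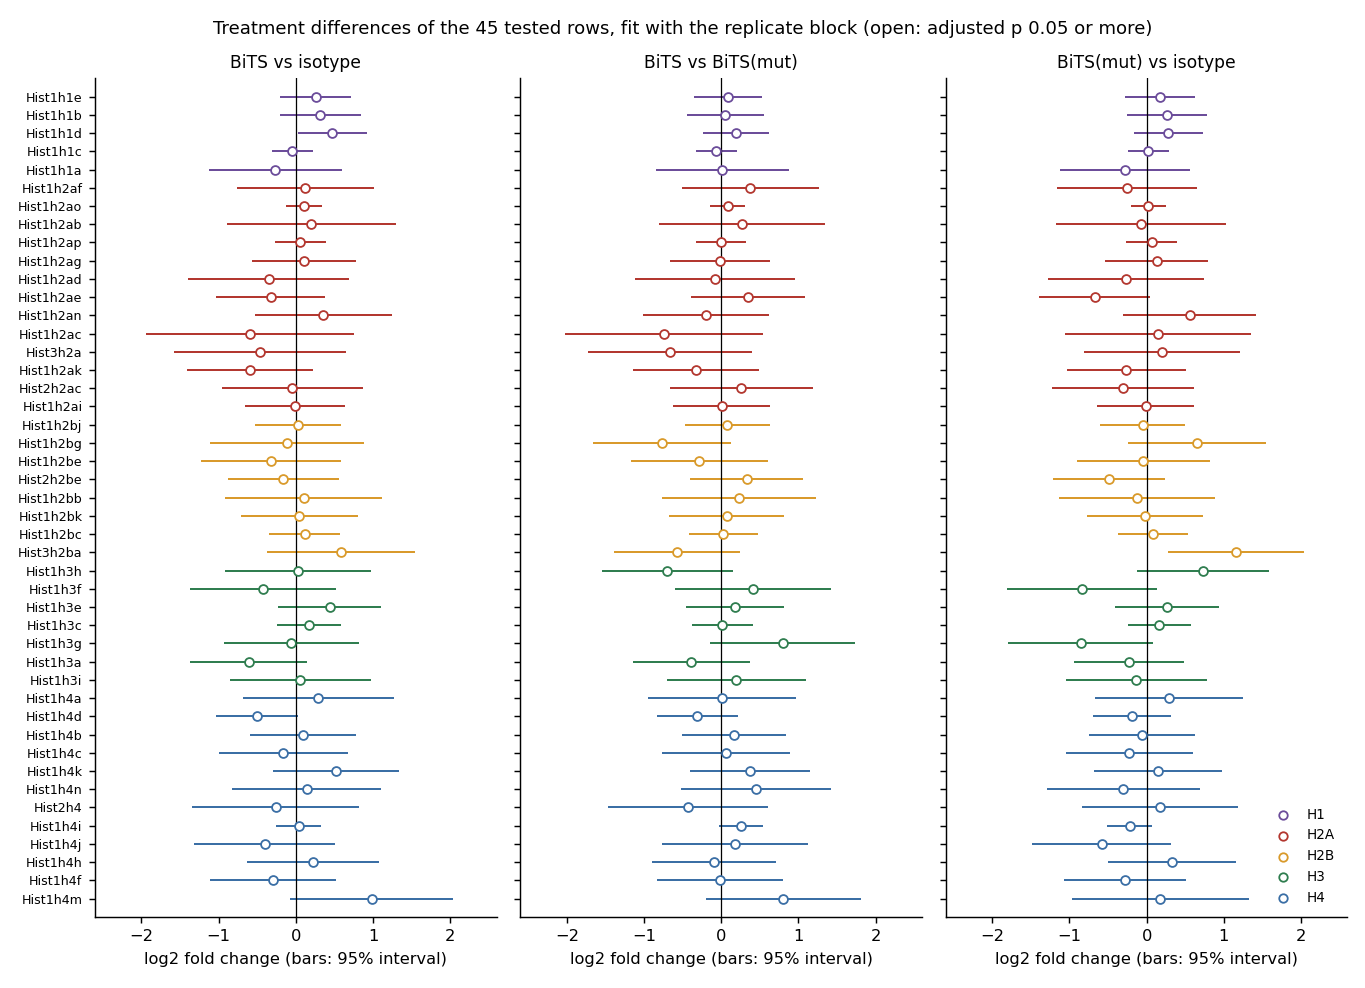
Log2 fold changes with 95% intervals of the 45 tested members in the 3 treatment comparisons, fitted with the replicate block and coloured by class. All points are open, since 0 members were called, and the median half-width of the intervals is 0.82, 0.80 and 0.82.

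Members were called between the sets. Since each group has 1 library in each set, the sets were compared with the groups held, and 10 of the 45 members (22.2%) were called, against 52.7% of all genes tested. Higher in the second set were 9 members, beside 25.9% of all genes: the H2A genes Hist1h2ao, Hist1h2ap, Hist1h2ag and Hist1h2af, the H3 genes Hist1h3c and Hist1h3h, and the H4 genes Hist1h4a, Hist1h4b and Hist1h4d. One linker histone, Hist1h1c, was lower, beside 26.9% of all genes. The share called was larger at higher levels: among members with a mean of 5 CPM or more it was 5 of 10 (50%), beside 60.7% of all genes at that level, and among lower members 5 of 35 (14.3%), beside 31.1%.

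Hist1h2ao held 322, 394 and 389 counts in the isotype, BiTS(mut) and BiTS libraries of the first set, and 591, 700 and 614 in the second. As CPM the first set lay at 25.9 to 28.9 and the second at 53.2 to 57.0, with no overlap in any group. The log2 fold change was 1.07 ± 0.09 (SE; adjusted p = 1.52e-14), or 2.10-fold. Its near copy Hist1h2ap held 138, 144 and 148 counts in the first set and 198, 279 and 214 in the second, a log2 fold change of 0.96 ± 0.13 (adjusted p = 1.47e-08). In both rows each second-set library was above each first-set library.

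Hist1h1c went the other way. It held 344, 456 and 370 counts in the first set and 225, 246 and 214 in the second, or 29.0 ± 1.34 against 20.02 ± 0.236 CPM (SD, n = 3), and fell by 0.48 ± 0.10 (adjusted p = 1.02e-04). The other 4 tested H1 genes had negative values that did not pass, from -0.65 for Hist1h1a to -0.02 for Hist1h1e. Hist1h1a held 25, 26 and 27 counts in the first set and 16, 15 and 10 in the second.

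The remaining called members were of lower level. The H4 gene Hist1h4d held 66, 52 and 38 counts in the first set and 70, 92 and 63 in the second, with a log2 fold change of 0.81 ± 0.21 (adjusted p = 9.11e-04). The H3 gene Hist1h3h, at 10, 18 and 12 against 19, 39 and 18 counts, was at 1.19 ± 0.35. Hist1h3c, the leading H3 gene, held 96, 101 and 109 against 90, 148 and 110 counts. Its change of 0.46 ± 0.16 (adjusted p = 0.0142) passed although the isotype library of the second set, at 8.11 CPM, lay within the first set's range. Hist1h2af, Hist1h2ag, Hist1h4a and Hist1h4b were at 1.08, 0.71, 0.88 and 0.66, with adjusted p from 0.00984 to 0.0479. Of the 10 calls, Hist1h2ao, Hist1h2ap and Hist1h1c were kept in all of 13 alternative fits without spike-in scaling, whereas Hist1h4a and Hist1h4b were kept in 4. The 13 include a filter at 5 CPM, under which Hist1h4a and Hist1h4b were too low to be tested.

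**Figure D3:**
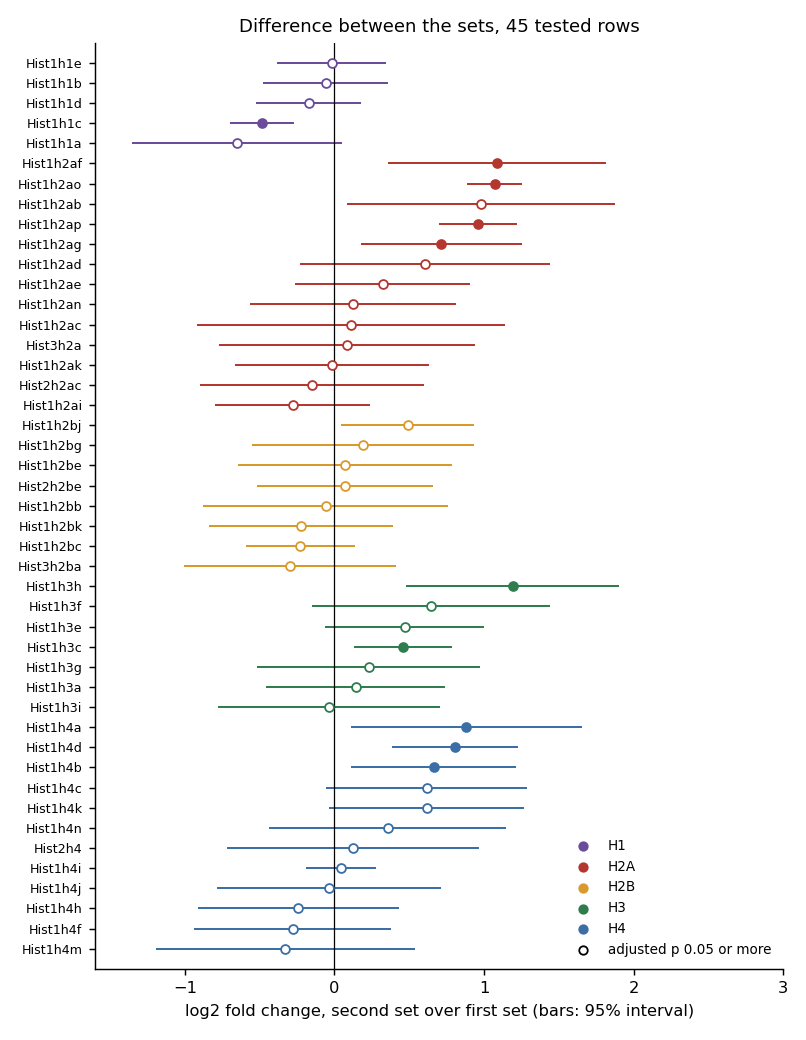
Log2 fold change of the second over the first set with 95% intervals for the 45 tested members, by class, filled where the adjusted p is under 0.05. The 5 H1 genes lie below 0, Hist1h2ao and Hist1h2ap lie near 1 with narrow intervals, and H2B has no filled point.

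In CPM, the libraries of the sets did not overlap for 15 members, 12 higher and 3 lower in the second set, beside 55.9% of all genes (24.1% higher and 31.7% lower). By class, 4 of 13 H2A, 2 of 7 H3, 3 of 12 H4, 0 of 8 H2B and 1 of 5 H1 rows were called. The medians were 0.32, 0.46, 0.24, 0.01 and -0.17, beside 0.021 over all genes and 0.124 over all 45 members. Because no test was run between classes, these values stand as a description.

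Sums over a class do not depend on how counted reads were divided among its rows. H2A summed to 60.7, 52.6 and 55.5 CPM in the isotype, BiTS(mut) and BiTS libraries of the first set and to 91.3, 101 and 97.8 CPM in the second. Hist1h2ao and Hist1h2ap made most of that gap: without them H2A stood at 18.04 ± 2.81 and 20.84 ± 0.52 CPM (SD, n = 3), and the ranges overlapped. H1 summed to 50.3 ± 0.793 CPM in the first set and 38.9 ± 3.18 in the second, with no overlap. H3 went from 18.3 ± 1.81 to 23.4 ± 2.23 CPM with no overlap, H4 from 38.2 ± 4.39 to 43.1 ± 1.42, and H2B from 22.7 ± 1.51 to 21.8 ± 2.04, both with overlapping ranges.

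**Figure D4:**
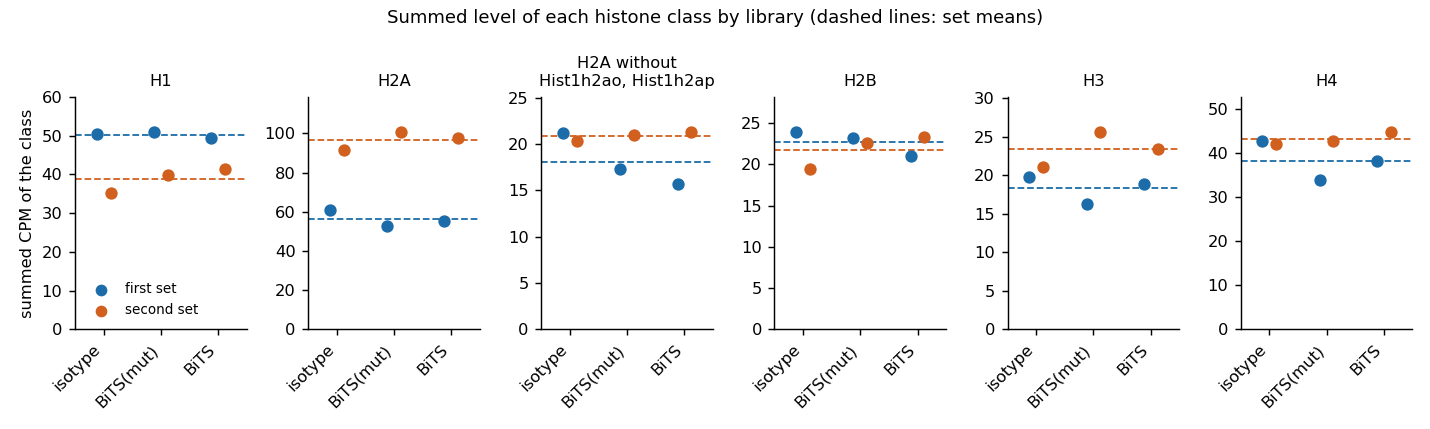
Summed CPM of each histone class in the 6 libraries by group, coloured by set, with dashed lines at the set means. H2A splits by set (56.3 against 96.6 CPM on average) and does so far less without Hist1h2ao and Hist1h2ap (18.04 against 20.84), and in no class are the groups apart.

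Hist1h2ao and Hist1h2ap together took 19.96% to 21.8% of the members' counts in the first set and 33.2% to 34.4% in the second. Over all 65 members the sum was 186 ± 10.7 CPM in the first set and 224 ± 12.6 CPM in the second. Without these rows it was 148 ± 9.14 and 148 ± 8.60 CPM. When rows that encode an identical protein were summed before the fit, 19 protein rows could be tested and 5 were called. The 9-gene H2A protein rose by 0.89 ± 0.08 (adjusted p = 1.28e-13), the 7-gene H3 protein by 0.43 ± 0.13, the single H4 protein by 0.23 ± 0.09 (adjusted p = 0.0252) and the Hist1h2af protein by 1.09 ± 0.36, while that of Hist1h1c fell by 0.48 ± 0.10.

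The set differences depend on the scaling. The spike-in transcripts took 3.36% to 4.03% of the counts in the first set and 5.14% to 7.54% in the second. Scaled to them, the median of all 13996 genes between the sets was -0.74, and 6123 of these genes were called, 6062 of them lower. The 11 members then called were all lower, Hist1h1c among them at -1.24. Hist1h2ao stood at 0.31 and Hist1h2ap at 0.19, neither called, but 1.05 and 0.93 above the median of all genes. What the spike-in shares reflect was not tested.

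Factors that make and process histone mRNA were detected alongside. Of 26 listed genes 22 were found and tested, and 0 were called in any treatment comparison by edgeR or DESeq2, with or without the block. At an unadjusted p under 0.05, edgeR gave 0 in each comparison without the block and 2, 1 and 2 with it. With the block, 2071, 1183 and 620 of all 13996 genes reached that limit. Between the sets 6 were higher and 5 lower, with a median of 0.007, beside 25.9% of all genes higher and 26.9% lower with a median of 0.021, so the share called was near that of all genes. Slbp, the stem-loop binding protein, stood at 74.3 ± 2.32 CPM in the first set and 69.9 ± 9.57 in the second and did not pass (adjusted p = 0.643). Npat fell by 0.33 ± 0.08, from 75.5 to 58.1 CPM. Zfp473, known as a component of the histone pre-mRNA processing complex, rose by 1.15 ± 0.13, from 9.16 to 19.4 CPM, and Ccne1, the cyclin that activates CDK2 at S-phase entry, rose by 0.51 ± 0.08. Eri1, an exonuclease that trims the histone stem-loop end, fell by 0.44 ± 0.07.

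Among 11 replication-independent histone genes, whose mRNAs are mostly polyadenylated and which are made through the cell cycle, 10 were tested. By treatment 0 were called by edgeR or DESeq2, with or without the block. An unadjusted p under 0.05 was reached by 1, between BiTS and isotype in edgeR with the block, beside 2071 of all 13996 genes. Between the sets 4 rose and 3 fell, again beside 52.7% of all genes called. H2afx, which has the stem-loop motif, rose by 0.80 ± 0.08, from 39.3 ± 1.02 to 66.2 ± 3.39 CPM, and H2afj by 0.998 ± 0.070. H2afz fell by 0.31 ± 0.07, while H3f3b at 0.09 ± 0.07 did not pass. Of 26 S-phase genes 12 were higher and 1 lower in the second set, with a median of 0.155, beside 25.9% and 26.9% of all genes. Rrm2 alone was called by treatment, where it fell by 0.31 ± 0.08 between BiTS and isotype in edgeR with the block, beside 3.4% of all genes called. DESeq2 with the block, and both tools without it, called 0 of the 26. Of 23 histone chaperones and assembly factors, 6 were higher and 4 lower between the sets, beside 52.7% of all genes called. Between BiTS and isotype in edgeR with the block, 2 were called, beside 3.4% of all genes: Hjurp, the CENP-A chaperone, rose by 0.71 ± 0.08 and Tonsl by 0.31 ± 0.09. DESeq2 with the block called 1 of the 23 there, and without the block both tools called 0 (adjusted p = 1.0 for both genes in edgeR). Hjurp was also higher in BiTS than in BiTS(mut) with the block, by 0.44 ± 0.08, beside 0.972% of all genes called, and without the block both tools called 0 there. Between the sets, 5 of 7 CD8 T cell markers were called higher in the second set, with a median of 0.32. Lower there were 5 of 5 tested dendritic cell markers and 4 of 4 tested macrophage and monocyte markers. Beside these, 25.9% of all genes were called higher and 26.9% lower. Of the B cell markers, 1 of 2 tested was called higher, too few to set against that share. By treatment, edgeR with the block called 2 CD8 T cell markers higher and 1 dendritic cell marker lower in BiTS than in isotype. The background there was 3.4% of all genes. DESeq2 with the block called 2 CD8 T cell and 0 dendritic cell markers there, and without the block both tools called 0 of either. The part of the marker differences in the histone values was not tested.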

How the data were processed

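Bulk RNA-seq of 6 libraries was deposited by the authors as count tables of whole reads on each gene, with 1 table for each library. Their processing notes in GEO list mm10 and DESeq2. No source used here states the aligner, the counter, its strand setting or its treatment of reads that fit several genes. Per the file headers each table lists exon intervals and lengths, and these set coordinates and RPKM. CPM uses the gene counts without the 92 spike-in transcripts. Symbols and gene types came from GENCODE M21 by identifier, which matched 49412 of 49671 genes.

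Counts were filtered with filterByExpr, scaled by TMM and tested over 13996 genes with edgeR 4.0.16 (R 4.3.3, limma 3.58.1), quasi-likelihood, two-sided, with Benjamini-Hochberg adjustment, all 6 libraries and 1 coefficient per group. The set difference is the set coefficient beside the groups. The replicate block is the set, from the title numbers. The labels do not call it a batch. Deviations from group means of libraries in the same set correlated at 0.663, 0.740 and 0.728 over genes. DESeq2 1.42.0, limma-voom, other scalings and filters and leaving out each library were alternatives. Shared words and stem-loops came from GENCODE M21 sequences, and identical proteins from its translated coding sequences. Scripts were tested on simulated counts.

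Members and gene lists were chosen with earlier results of these data known. Named members are, by a written rule, the 3 highest per class in RPKM, up to 4 per direction and comparison with the smallest p, and all called. Floors cover counting error only, whereas the 95% intervals of fold changes come from the fits and include the spread between libraries.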

Additional observations from a re-analysis of the deposited data

How the results depend on the processing

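In the treatment comparisons 0 members were called with TMM, RLE, library totals or spike-in scaling, with no filter or a 5 CPM filter, with DESeq2 or limma-voom, with identical proteins summed or with the 4 compared libraries alone. The replicate block left these calls at 0, also with DESeq2 and, chosen after seeing the data, with identical proteins summed. Leaving out 1 library in turn gave 0 to 1 calls between BiTS and isotype: without isotype replicate 4, in the block, Hist1h4d was called at -0.98 (adjusted p = 0.0478). The members' median then ran from -0.17 to 0.15, between BiTS and BiTS(mut) from -0.15 to 0.28, and between BiTS(mut) and isotype from -0.29 to 0.23. Values of named members that changed sign ran from -0.89 to 0.27 (Hist1h2ae), -1.24 to 0.072 (Hist1h2ak) and -1.08 to 0.003 (Hist1h4d) for BiTS against isotype, -1.31 to 0.13 (Hist1h3h), -0.28 to 1.22 (Hist1h4k) and -1.47 to 0.12 (Hist3h2a) for BiTS against BiTS(mut), and -0.13 to 1.37 (Hist1h3h) for BiTS(mut) against isotype. Spike-in scaling moved the median of BiTS against BiTS(mut) to 0.21.

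Between the sets, where the main fit gave 10 calls, DESeq2 gave 4 (Hist1h2ao, Hist1h2ap, Hist1h4d and Hist1h1c), beside 5316 of 13996 genes. The 5 CPM filter gave 6 of 11 tested, 5 of them among the 10, beside 6509 of 10510 genes. With identical proteins summed, 5 of 19 were called, beside 7379 of 13970 rows, with fewer members tested and a median of -0.016. Leaving out a library gave 4 to 10 calls, beside 4957 to 7267 of all genes, and medians of 0.042 to 0.30, with 4 calls without either BiTS(mut) library. Without either isotype library, some of the calls were not among the 10 of the main fit. Spike-in scaling gave 11 calls, all lower, beside 6123 of 13996 genes called, 6062 of them lower. The members' median was then -0.67 beside -0.74 over all genes, and Hist1h3c turned to -0.32, Hist1h2ag to -0.042 and Hist1h4b to -0.10. The cause was not tested. Rows too low to judge were 20 with filterByExpr and 54 with the 5 CPM filter. With 2 libraries a group, 3 counts as the floor and shared sequence, single low rows are the least certain.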
